A study of Mus musculus with 9 samples.

Results

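AP-1 and immediate-early transcription factors were followed in cultured fetal mouse urogenital sinus (UGS) mesenchyme cells exposed to estradiol (E2). They were 10 genes of 19938 measured, chosen by name: the Fos family (Fos, Fosb, Fosl1, Fosl2), the Jun family (Jun, Junb, Jund), Atf3, Egr1 and Ier2. The choice was made with earlier results of these data known, among them that of Atf3. Where a gene had several probesets, the one with the highest mean over the 9 arrays stood for it, and each of these 10 genes had 1. UGS mesenchyme is the connective tissue from which the stroma of the prostate forms. The cells came from male CD-1 fetuses at gestation day 17, were used at first passage, and were starved of serum hormones for 3 days with 690 pM dihydrotestosterone (DHT). They then received ethanol vehicle, 10 pM E2 or 100 pM E2 for 4 days, so that all 3 groups carried DHT and differed in E2. The labels give differing ethanol concentrations for the vehicle in different fields. Each group had 3 samples, and their RNA was read on Affymetrix Mouse Gene 1.0 ST arrays. Nothing in the labels or methods says that the 3 samples of a group were separate cultures, so the p-values below reflect the spread among these samples alone, and that spread may be technical.

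AP-1 is a dimer of basic leucine zipper (bZIP) proteins, in which Fos proteins pair with Jun proteins and Jun proteins also pair with each other. It binds the TPA response element (TRE) and, with partners of the ATF family, the cAMP response element (CRE). Fos, Fosb, Jun, Junb, Atf3, Egr1 and Ier2 are known as immediate-early genes, whose transcription rises and falls soon after a growth factor or stress signal without need of new protein. Estrogen receptors are known to act at AP-1 sites by contact with Fos and Jun as well as at their own response elements, and mesenchymal cells respond to serum and medium changes through the same genes. In the culture described in the methods, medium was renewed daily, and the arrays sampled the cells days after the first exposure. Early induction was therefore not tested here.

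Short control elements were looked up next to the start sites of the genes. RefSeq promoters on GRCm38.p6 were held for 7 of the 10 genes. Fosl1, Egr1 and Ier2 had no entry. Searched on both strands of the 250 bases before the start were the TRE (TGACTCA), the CRE (TGACGTCA), the site type known from Jun (TGACATCA), that of Atf3 (TTACGTCA), the CRE half-site (TGACG, which overlaps the CRE and the Atf3 type), the CArG box of serum response factor, the estrogen response element (GGTCANNNTGACC) and the Egr1 site (GCGTGGGCG). TATAAA was searched on the coding strand. A match describes letters in this window and is not a measured binding site. Bases farther upstream were not searched, so a missing match does not mean that a gene lacks the element. The promoters of 3 genes are printed because they show the elements of Atf3, Jun and Fos in place, in capitals together with the TATA box of Fos. The Atf3 and Jun types are sites known from these very promoters, so their presence there is no finding. Positions count back from -1, the last base before the start, and give the first base of the match. The windows are chr1:191183334-191183583 on the minus strand for Atf3, chr4:95052223-95052472 on the minus strand for Jun and chr12:85473640-85473889 on the plus strand for Fos.
Atf3: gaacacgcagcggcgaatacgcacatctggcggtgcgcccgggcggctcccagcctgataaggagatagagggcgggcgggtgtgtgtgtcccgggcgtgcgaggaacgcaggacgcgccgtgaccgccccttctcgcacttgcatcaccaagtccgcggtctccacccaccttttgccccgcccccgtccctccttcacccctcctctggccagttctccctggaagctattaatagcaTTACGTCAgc
Jun: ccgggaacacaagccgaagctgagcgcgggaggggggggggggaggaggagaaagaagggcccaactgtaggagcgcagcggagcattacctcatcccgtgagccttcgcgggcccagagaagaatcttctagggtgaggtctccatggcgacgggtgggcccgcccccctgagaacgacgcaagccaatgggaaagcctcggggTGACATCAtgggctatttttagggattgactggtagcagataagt
Fos: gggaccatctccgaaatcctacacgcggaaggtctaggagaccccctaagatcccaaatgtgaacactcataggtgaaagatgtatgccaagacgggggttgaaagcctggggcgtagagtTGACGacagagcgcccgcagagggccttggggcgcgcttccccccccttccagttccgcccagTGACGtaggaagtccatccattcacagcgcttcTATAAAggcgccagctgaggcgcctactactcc
The Atf3-type element stood at -10 in Atf3 and contains a half-site at -7, and 0.447% of 32851 promoters of the same length held one. Jun held its own site type at -45, found in 2.93% of promoters. Fos held half-sites at -129 and -66 and TATAAA at -33. A half-site also stood at -106 in Junb, and 1 in Fosb at -60 from the start that RefSeq gives this promoter, which lies inside the longest RefSeq span of the gene. Of all promoters 17.8% held at least 1 half-site. TATAAA was held by 7.59% of promoters. No TRE (4.46% of promoters), CRE (1.55%), CArG box (1.47%), estrogen response element (0.0639%) or Egr1 site (0.536%) was matched in the 7 windows, including those of Fosl2 and Jund, in which nothing searched was matched.

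Array medians lay between 6.17 and 6.20 on the log2 scale. Mesenchymal markers were checked first. The mean log2 level of 9 mesenchymal markers, among them Vim, Col1a1 and Pdgfra, was 11.2 to 11.4 on all arrays. The same mean was 5.89 to 6.08 for 8 epithelial, 6.07 to 6.16 for 8 endothelial and 5.63 to 5.98 for 11 macrophage markers. Probes differ in brightness, so levels of different genes are not ranked here. None of the 10 genes fell among the dimmest 30% of genes. Their residual SDs within groups ran from 0.0196 (Egr1) to 0.0887 (Fosl1), with 8 of the 10 below the median of 0.0710 over all genes and Fos and Fosl1 above it. Exactly repeated values between arrays occurred for 7 of the 10, as for 72.7% of all genes. How far such repeats lowered the residual SDs was not tested.

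At 100 pM E2 against vehicle, 1 of the 10 genes, Atf3, was called, that is, had a limma p below 0.05 after Benjamini-Hochberg adjustment over all genes. It was lower. Of all genes 1.13% were called, with 0.687% of all genes called lower and 0.446% called higher. Unadjusted p was below 0.05 for 2 of the 10, Atf3 and Fosb, and for 10.9% of all genes. Values at 100 pM and with vehicle stood wholly apart for 3 of the 10 (Atf3 and Fosb lower, Fosl2 higher) and for 12.5% of all genes, 5.89% lower and 6.61% higher. The 10 differences divided into 5 higher and 5 lower, beside 47.0% of all genes lower, with a median of 0.008 beside 0.0049 over all genes. No common direction of the family was thus seen, and the intervals of the 8 genes that were neither Atf3 nor Fosb lay within -0.15 to 0.24 on the log2 scale.

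**Figure D1:**
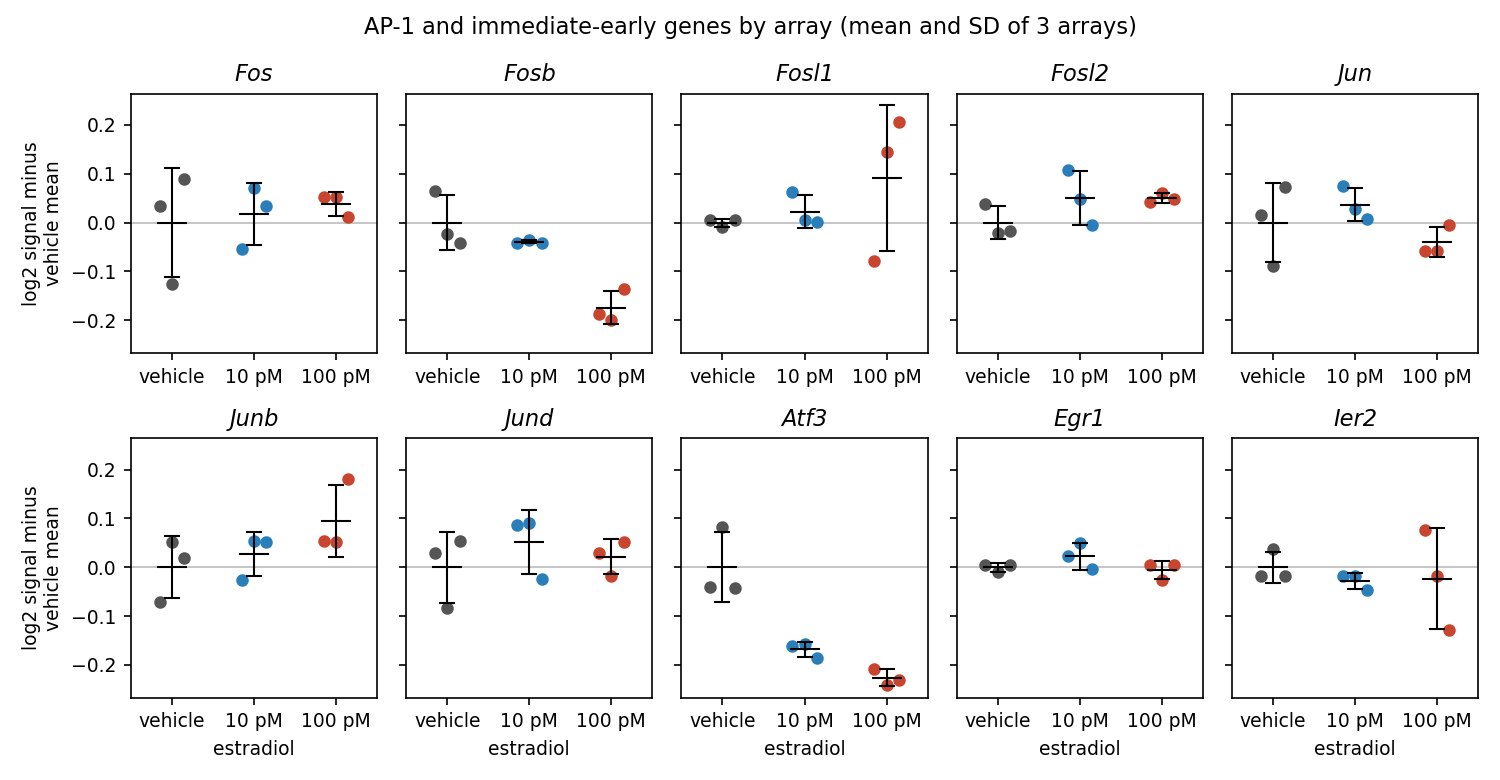
Log2 signal of each of the 10 genes on each array, minus the mean of the vehicle arrays (y axis), for vehicle, 10 pM and 100 pM E2 (x axis). Points are arrays, bars the mean and SD of 3 arrays. Atf3 was lower on all 6 E2 arrays than on any vehicle array, Fosb was lower on the 100 pM arrays than on the others, and the other genes showed no such step across both doses.

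Atf3 encodes a bZIP factor of the ATF/CREB family that is induced by stress and pairs with Jun proteins or with itself, often repressing transcription. Its log2 signal was 7.00, 7.13 and 7.00 with vehicle, 6.88, 6.89 and 6.86 with 10 pM E2, and 6.84, 6.80 and 6.81 with 100 pM E2. All 6 E2 arrays lay below all 3 vehicle arrays, and the 100 pM arrays lay below the 10 pM arrays. Atf3 fell by 0.23 ± 0.04 (SE, n = 3 per group) on the log2 scale at 100 pM (95% interval -0.32 to -0.13, adjusted p = 0.0406 by limma), which is a signal 0.855 times that of vehicle. At 10 pM the difference was -0.17 ± 0.04 (SE, interval -0.26 to -0.07), with an unadjusted limma p of 0.00282, the 43rd lowest of all genes, and an adjusted p of 1. The difference between the doses was -0.06 ± 0.04 (SE, adjusted p = 0.706 by limma). The limma F test over the 3 groups gave Atf3 an adjusted p of 0.0803.

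The call on Atf3 was close to the threshold. Its direction held in all 20 alternative settings tried, with differences at 100 pM from -0.25 to -0.18, but the call was lost in 14 of them, including each of the 9 fits that left out 1 array (limma adjusted p 0.0695 to 0.146) and quantile normalization (0.0517). In some of these settings few genes were called at all, 10 of 19938 with only the compared groups and 30 without moderation. The second vehicle array carried the highest Atf3 value. Without it the difference was -0.18 with an adjusted p of 0.0774 by limma.

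Genes whose signals tracked Atf3 most closely over the 9 arrays were Thnsl2, a threonine synthase-like gene (Pearson r 0.988), Cntfr, a receptor subunit for ciliary neurotrophic factor (0.939), and Kcns3, a potassium channel subunit (0.931). They were picked as the highest r among all genes, so r is a description. At 100 pM Cntfr fell by 0.37 ± 0.05 (SE) on the log2 scale (adjusted p = 0.0146 by limma). Thnsl2 was at -0.18 (0.0738) and Kcns3 at -0.14 (0.162), neither called.

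Macrophages, which also express Atf3 when activated, can be present in primary cultures, and their markers were lower alongside it at 100 pM. All 11 macrophage markers had lower means at 100 pM than with vehicle, beside 47.0% of all genes, with 1 called, beside 0.687% of all genes called lower (C1qb, a complement subunit, -0.51, adjusted p = 0.0433 by limma). Their mean log2 level was 5.84 to 5.98 on the vehicle arrays, 5.74 to 5.92 on the 10 pM arrays and 5.63 to 5.67 on the 100 pM arrays. Vehicle array 2 was highest in this mean as it was in Atf3. The mean of 10 pM array 2 (5.92) lay above those of vehicle arrays 1 and 3 (5.84 each). Its Atf3 signal (6.89) lay below all vehicle arrays. At 10 pM against vehicle 3 of the 11 macrophage markers had higher means and 8 lower, beside 46.4% of all genes lower. Atf3 differed by -0.17. At 10 pM Cd68 (-0.14), Csf1r (-0.17) and Adgre1 (-0.17), 3 lower, and Tyrobp (0.11), 1 higher, had an unadjusted limma p below 0.05. The share of all genes was 3.54%. Cd68, like Atf3, was lower on every E2 array than on any vehicle array. At 100 pM Cd68 differed by -0.28 (adjusted p = 0.0525 by limma) and Lyz2, the largest fall, by -0.88 (0.155). Among defining markers, Ptprc lay between 5.33 and 5.80, Adgre1 between 4.51 and 4.92 and Csf1r between 5.73 and 6.12 over the 9 arrays. Of the mesenchymal markers, 3 of 9 were called lower at 100 pM, Pdgfra (-0.45), Dcn (-0.25) and Col3a1 (-0.18), beside 0.687% of all genes, and of the endothelial markers Kdr (-0.98) was called lower and Emcn (0.82) higher. The part of these cell types in the Atf3 difference was not tested, and in these bulk RNA samples fewer cells of a type and less RNA per cell cannot be told apart.

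Of the Fos family, whose proteins join AP-1 only as partners of others, Fosb came closest to Atf3. Fosb read 6.42, 6.34 and 6.32 with vehicle, 6.32 on each 10 pM array, and 6.17, 6.16 and 6.22 with 100 pM E2. The 100 pM arrays lay below all 6 others, whereas vehicle and 10 pM touched. Its difference at 100 pM was -0.17 ± 0.04 (SE, interval -0.26 to -0.09, adjusted p = 0.0892 by limma) against vehicle and -0.13 ± 0.04 (SE, interval -0.22 to -0.05, adjusted p = 0.229 by limma) against 10 pM. Fosb was not called, except where the dimmest 30% of genes were left out before adjustment (adjusted p = 0.0451 by limma) or where the threshold was set at 0.10.

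Fos, the founding member and the most used readout of immediate-early induction, read 6.95, 6.79 and 7.01 with vehicle, 6.86, 6.99 and 6.95 with 10 pM E2, and 6.97, 6.97 and 6.93 with 100 pM E2. The lowest and the highest array were both vehicle arrays, and the groups overlapped. The difference at 100 pM was 0.04 ± 0.06 (SE, interval -0.09 to 0.17, adjusted p = 0.859 by limma). Fosl1, which encodes Fra-1, was tight in vehicle at 6.71, 6.70 and 6.71 and wide at 100 pM at 6.63, 6.85 and 6.92, so that 1 of the 100 pM arrays lay below and the other 2 above every vehicle array. Fosl1 had exactly the same value on vehicle arrays 1 and 3. Its 10 pM arrays read 6.77, 6.71 and 6.71, and its difference at 100 pM was 0.09 ± 0.07 (SE, interval -0.06 to 0.24, adjusted p = 0.681 by limma).

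Fosl2, which encodes Fra-2, read 8.97, 8.91 and 8.92 with vehicle, 9.04, 8.98 and 8.93 with 10 pM E2, and 8.98, 9.00 and 8.98 with 100 pM E2. The 100 pM arrays did not overlap with vehicle, but the step was small, at 0.05 ± 0.04 (SE, interval -0.04 to 0.14, adjusted p = 0.700 by limma). The same size was measured at 10 pM. Within the Fos family, then, the means of Fos, Fosl1 and Fosl2 at 100 pM stood above vehicle and that of Fosb below it, and none passed the threshold.

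The Jun proteins supply the partner that every Fos protein needs. Jun read 8.58, 8.47 and 8.63 with vehicle, 8.64, 8.59 and 8.57 with 10 pM E2, and 8.51, 8.50 and 8.56 with 100 pM E2. Its 100 pM arrays lay below its 10 pM arrays and inside the range of vehicle. The differences were -0.04 ± 0.05 (SE, interval -0.15 to 0.07, adjusted p = 0.807 by limma) against vehicle and -0.08 ± 0.05 (SE, adjusted p = 0.645 by limma) against 10 pM. Junb, which is known to oppose Jun at some promoters, read 7.14, 7.26 and 7.23, then 7.18, 7.26 and 7.26, then 7.26, 7.26 and 7.39 in the same order of groups. Its groups overlapped, and its difference at 100 pM was 0.09 ± 0.05 (SE, interval -0.02 to 0.21, adjusted p = 0.558 by limma).

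Jund, the Jun protein that is expressed most steadily in resting cells, read 8.86, 8.74 and 8.88 with vehicle, 8.91, 8.92 and 8.80 with 10 pM E2, and 8.86, 8.81 and 8.88 with 100 pM E2. The groups covered nearly the same range, with a difference of 0.02 ± 0.05 at 100 pM (SE, interval -0.09 to 0.13, adjusted p = 0.919 by limma). For all 3 Jun genes the interval at 100 pM stayed within -0.15 to 0.21. These intervals were fitted gene by gene, and each can miss the true difference. They rest on 3 arrays per group whose spread may be technical, so they set no firm limit on an undetected difference.

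Egr1, a zinc finger factor induced through serum response factor, was the steadiest of the 10, with a range over the 9 arrays of 0.0760 on the log2 scale. Egr1 held 6 distinct values over the 9 arrays because of exact repeats, whose part in its small spread was not tested. It read 7.33, 7.31 and 7.33 with vehicle, 7.34, 7.37 and 7.32 with 10 pM E2, and 7.33, 7.29 and 7.33 with 100 pM E2. The groups overlapped, and the difference at 100 pM was -0.01 ± 0.03 (SE, interval -0.08 to 0.07, adjusted p = 0.975 by limma), a sign that turned under median centring and quantile normalization. Ier2, a nuclear protein of the immediate-early response, read 7.45, 7.51 and 7.45, then 7.45, 7.45 and 7.42, then 7.54, 7.45 and 7.34. Its highest and lowest array were both 100 pM arrays, with a difference from vehicle of -0.02 ± 0.05 (SE, interval -0.14 to 0.09, adjusted p = 0.912 by limma).

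**Figure D2:**
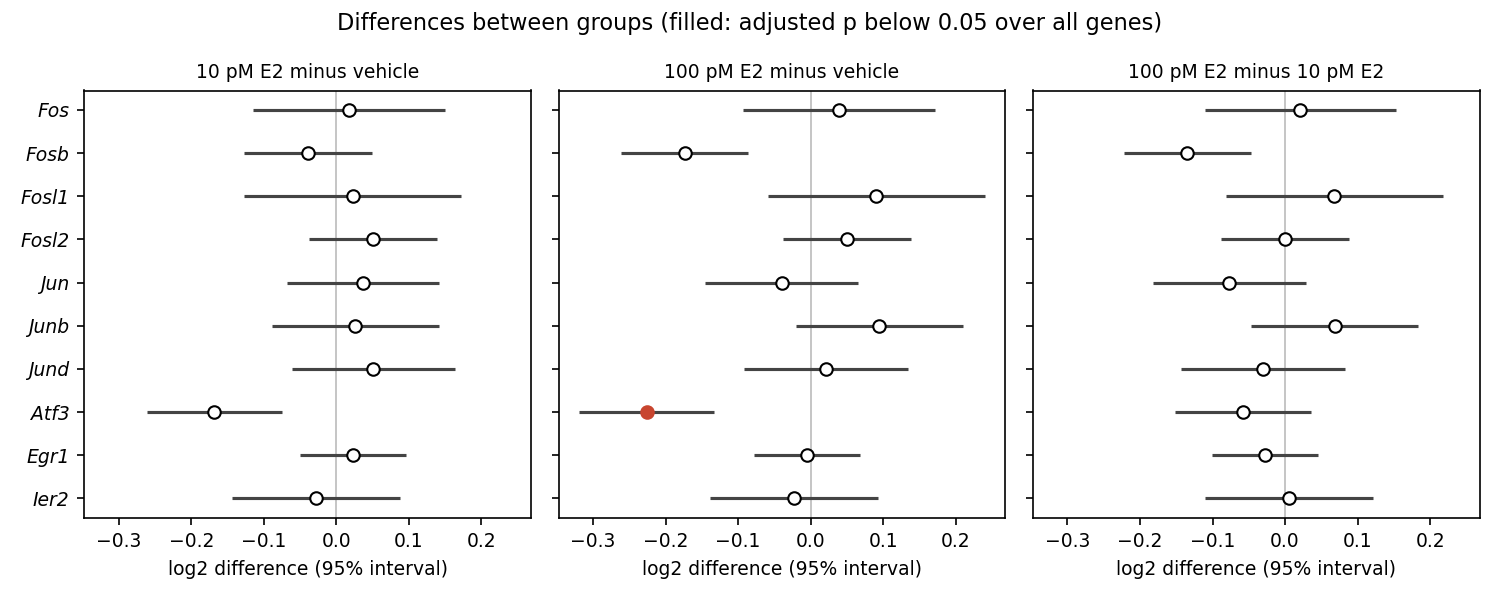
Log2 differences of the 10 genes (rows) with their 95% limma intervals (x axis) for 10 pM E2 minus vehicle, 100 pM E2 minus vehicle and 100 pM minus 10 pM E2. The filled point, Atf3 at 100 pM against vehicle (-0.23, interval -0.32 to -0.13), is the one call, and Fosb at -0.17 is the next in size.

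At 10 pM E2 against vehicle, limma called none of the 10 genes and 0% of all genes. Atf3 was the one of the 10 with an unadjusted p below 0.05, as were 3.54% of all genes, and also the one whose arrays did not overlap, as in 5.93% of all genes (2.19% lower, 3.74% higher). The other 9 differences lay between -0.04 (Fosb) and 0.05 (Jund), with 7 of the 10 higher and 3 lower, beside 46.4% of all genes lower. Atf3, Fosb and Ier2, 3 of the 10, had lower means at both doses, as had 29.0% of all genes. The median of the 10 at 10 pM was 0.02 beside 0.0046 over all genes.

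Between the doses, limma called none of the 10 genes, beside 0.833% of all genes. Unadjusted p was below 0.05 for 1, Fosb, and for 10.2% of all genes. Means at 100 pM were below those at 10 pM for 6 of the 10 and for 49.4% of all genes. Arrays at 100 pM lay wholly below those at 10 pM for 3, Atf3, Fosb and Jun, beside 6.42% of all genes lower and 5.89% higher, 12.3% in all. A difference of 10 pM from the mean of vehicle and 100 pM, which asks for a response that is not monotonic in dose, was called by limma for none of the 10 and for 0.00502% of all genes. None of the 10 had an unadjusted p below 0.05 there, beside 5.61% of all genes, and their values ran from -0.05 (Atf3) to 0.06 (Jun), with 5 of the 10 below 0, beside 48.3% of all genes. Group means of Atf3 and Fosb descended from vehicle over 10 pM to 100 pM, the order seen in 17.1% of all genes. The limma F test over the 3 groups called none of the 10, beside 0.843% of all genes, with Atf3 and Fosb (adjusted p = 0.169) below 0.05 unadjusted, as were 9.15% of all genes. Comparisons of either dose with vehicle share the vehicle arrays.

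The 10 genes did not move as a block from array to array. Over the 45 pairs, Pearson r across the 9 arrays ran from -0.80 to 0.78 with a median of -0.06, and 20 pairs were above 0. By exact permutation 4 pairs had a p below 0.05 for r and none after adjustment over the 45 pairs. The permutation mixed arrays across the dose groups, so these p-values also take in differences between groups already reported gene by gene. For Spearman's rho, 4 pairs were below 0.05 and 2 after adjustment. The first of these was Jund with Egr1 (r = 0.78, exact p = 0.0122, adjusted 0.265, rho = 0.91, exact p = 0.00126, adjusted 0.0298). Its r was 0.86 without the 2 arrays farthest from the median of Jund, and 0.80 for deviations from the group means. The other was Fosb with Atf3 (r = 0.69, exact p = 0.0390, adjusted 0.439, rho = 0.92, exact p = 0.00132, adjusted 0.0298). Its r was 0.58 without the 2 arrays farthest from the median of Fosb and -0.27 for deviations from the group means, so this relation lay between the groups and not within them. Jun with Jund (r = 0.76, exact p = 0.0177, adjusted 0.265, rho = 0.79, exact p = 0.0138, adjusted 0.177) reached 0.84 for deviations from the group means, and 0.49 without the 2 arrays farthest from the median of Jun.

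**Figure D3:**
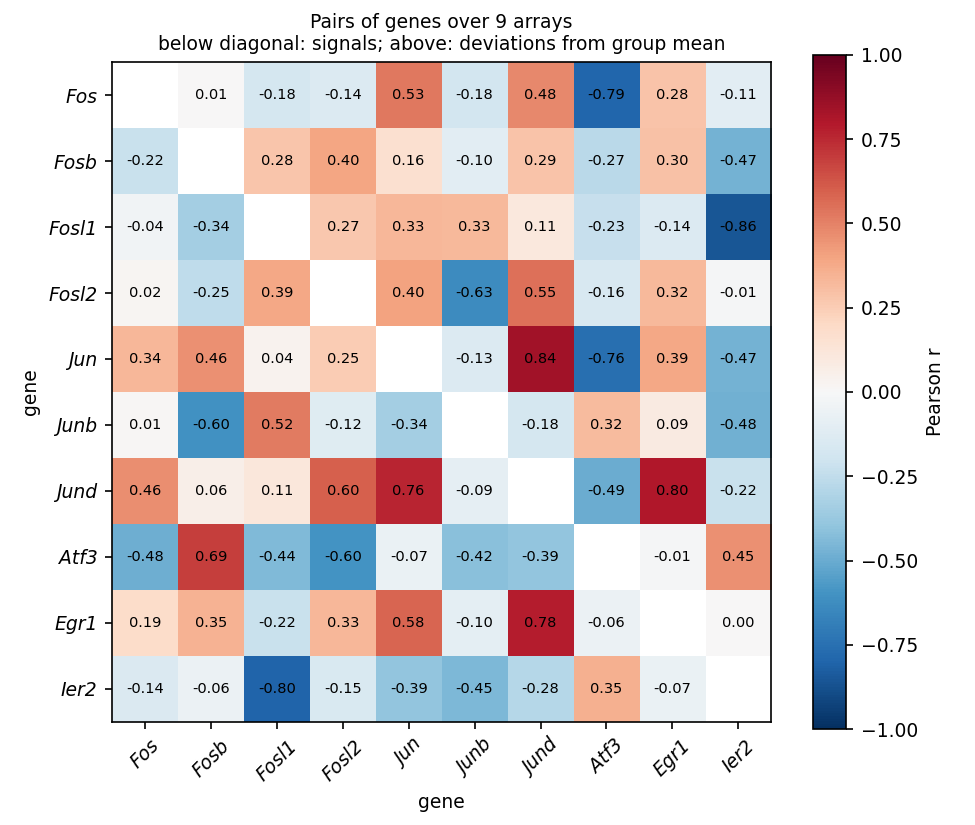
Pearson r between each pair of the 10 genes over 9 arrays, below the diagonal for log2 signals and above it for deviations from the group means (colour scale from -1 to 1). Fosb with Atf3 was 0.69 below and -0.27 above the diagonal, whereas Jund with Egr1 was 0.78 and 0.80.

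Genes around AP-1 were read in 6 lists written by name. At 100 pM against vehicle 1.13% of all genes were called, and 10.9% had an unadjusted limma p below 0.05. In the list of related bZIP factors and dimer partners, 25 of 26 were measured, and limma called none at 100 pM against vehicle. Unadjusted p was below 0.05 for 1 higher and 2 lower, beside that 10.9% of all genes. Of the 25, 18 were lower, beside 47.0% of all genes, with a median of -0.03 beside 0.0049 over all genes. The 3 of smallest p were Cebpd (-0.13), Atf1 (0.08) and Atf4 (-0.10), the last known as an activator of Atf3. The list of Atf4 and the integrated stress response, which induces Atf3 when amino acids or protein folding fail, had 17 of 18 measured and none called by limma, with 3 lower and 0 higher at an unadjusted p below 0.05. Of the 17, 10 were lower and 7 higher, with a median of -0.02. Trib3 (-0.23 ± 0.07 SE, adjusted p = 0.210 by limma) and Cebpg (-0.20 ± 0.05 SE, adjusted p = 0.166 by limma) led the list. Asns (-0.03) and Ddit3 (-0.03) lay near 0, and Nupr1 (0.13) was highest. Atf4 stands in both lists and is counted in each among the lower genes, at 100 pM and between the doses. Trib3 read 9.55, 9.53 and 9.60 with vehicle and 9.48, 9.19 and 9.31 with 100 pM E2, without overlap.

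Among 28 other immediate-early genes, all measured, limma called none at 100 pM, and their median was 0.01. Unadjusted p was below 0.05 for 4 higher and 1 lower, beside 10.9% of all genes. The 3 of smallest p were Ptgs2, the inducible prostaglandin synthase, Nr4a2, an orphan nuclear receptor, and Errfi1, an inhibitor of EGF receptor signalling. Ptgs2 read 11.27, 11.44 and 11.44 with vehicle, 11.43, 11.48 and 11.48 with 10 pM E2, and 11.50, 11.76 and 11.66 with 100 pM E2. Its 100 pM arrays were above all others, at 0.26 ± 0.07 (SE, adjusted p = 0.174 by limma). Nr4a2 was at 0.24 (0.244) and Errfi1 at -0.13 (0.357). Of the kinases and serum response factor partners that drive Fos and Egr1, 17 of 22 were measured, with none called by limma and a median of 0.0058. Unadjusted p was below 0.05 for 1 higher and 2 lower, beside the same 10.9% of all genes. Map3k1 (-0.23), Braf (-0.16) and Map2k2 (0.14) had the smallest p.

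Of 16 feedback inhibitors of MAP kinase and Egr signalling, all measured, 13 were higher at 100 pM, beside 47.0% of all genes lower, with a median of 0.04, and 1 was called, beside 0.446% of all genes called higher. Spry2, a Sprouty protein that damps receptor tyrosine kinase signalling, read 8.15, 8.22 and 8.21 with vehicle, 8.47, 8.35 and 8.29 with 10 pM E2, and 8.43, 8.48 and 8.49 with 100 pM E2. All 6 E2 arrays were above all vehicle arrays. Spry2 rose by 0.27 ± 0.05 (SE, adjusted p = 0.0402 by limma) at 100 pM, and at 10 pM the difference was 0.18 ± 0.05 (SE, adjusted p = 1 by limma). The call at 100 pM was lost in 11 of 20 alternative settings. In the feedback list and the 4 lists before it, limma called no gene at 10 pM against vehicle and none between the doses. Of all genes it called 0% and 0.833%, and 3.54% and 10.2% had an unadjusted p below 0.05. In the lists, unadjusted p was below 0.05 at 10 pM for 1 lower bZIP factor, 1 higher and 1 lower immediate-early gene and 1 higher feedback gene (Spry2). Between the doses it was below 0.05 for 1 higher and 1 lower bZIP factor, 4 higher and 3 lower immediate-early genes, 2 higher and 2 lower input genes, 4 higher feedback genes and 3 lower stress response genes.

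**Figure D4:**
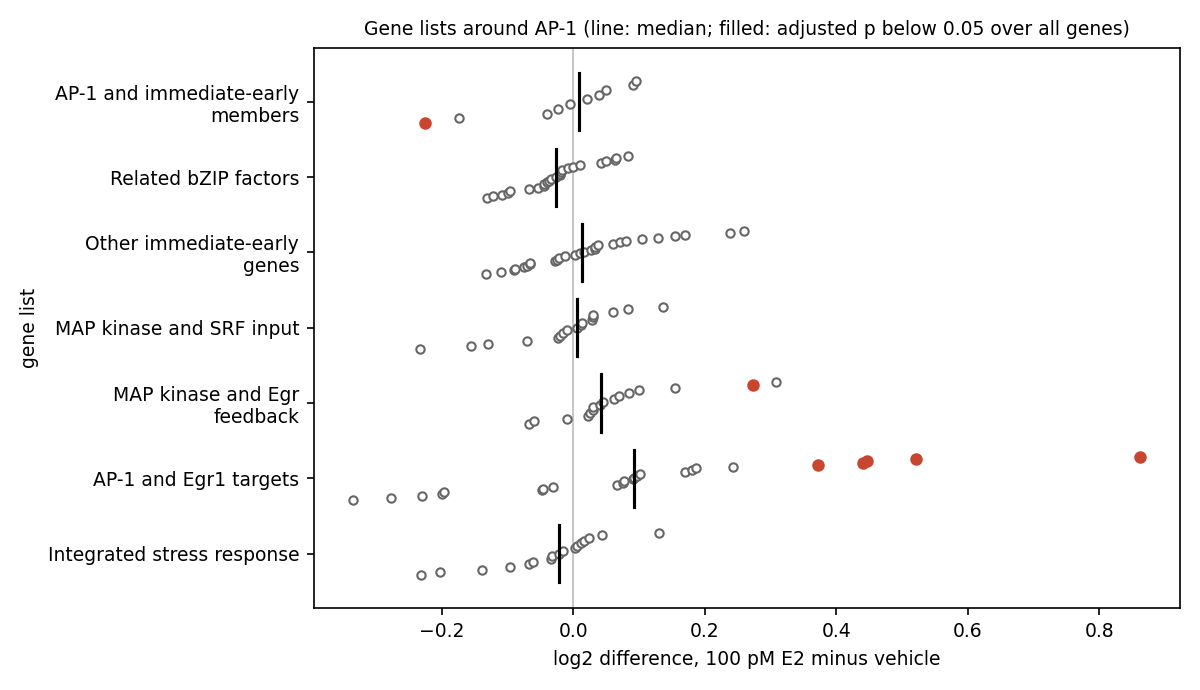
Log2 differences of 100 pM E2 minus vehicle (x axis) for the 10 genes and 6 lists of related genes (rows), with each gene as a point, the list median as a line and called genes filled. The 10 genes hold 1 filled point below 0, the AP-1 and Egr1 targets hold 5 above 0, and Spry2 is the one filled point of the feedback list.

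Of 26 genes known as AP-1 or Egr1 targets, 24 were measured. At 100 pM against vehicle, 5 were called higher and none lower, beside 0.446% and 0.687% of all genes. Unadjusted p was below 0.05 for 9 higher and 5 lower, beside 10.9% of all genes in either direction. Their median was 0.09 beside 0.0049 over all genes. The list was written with the values of some of its members known, among them Sprr1a, Ccnd1 and Gja1, so these counts are no independent evidence of a direction or a size, and they were not tested against those of the 10 factors. Promoters of 3 target genes are printed because each holds a TRE, an element held by 4.46% of all promoters. Only 8 genes, picked because they were called, were looked up, and the other targets were not searched. The 3 genes were listed as known targets, so a TRE in them is no finding. No contrast with the promoters of the factors was tested. The TRE, on either strand (TGACTCA or TGAGTCA), and in Sprr1a also the Jun site type and TATAAA, are in capitals, as are the half-sites of Gja1. The windows are chr3:92485882-92486131 on the minus strand for Sprr1a, chr10:56377050-56377299 on the plus strand for Gja1 and chr8:94172368-94172617 on the plus strand for Mt2, all on GRCm38.p6 from RefSeq.
Sprr1a: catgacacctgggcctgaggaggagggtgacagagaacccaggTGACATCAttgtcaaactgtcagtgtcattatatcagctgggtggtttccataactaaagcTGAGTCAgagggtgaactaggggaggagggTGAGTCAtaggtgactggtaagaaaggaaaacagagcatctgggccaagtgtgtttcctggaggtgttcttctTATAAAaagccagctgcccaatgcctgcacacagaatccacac
Gja1: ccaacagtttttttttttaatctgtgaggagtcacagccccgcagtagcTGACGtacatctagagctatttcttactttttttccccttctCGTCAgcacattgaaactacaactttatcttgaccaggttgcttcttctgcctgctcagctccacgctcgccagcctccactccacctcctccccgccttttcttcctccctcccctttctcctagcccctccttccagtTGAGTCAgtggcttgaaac
Mt2: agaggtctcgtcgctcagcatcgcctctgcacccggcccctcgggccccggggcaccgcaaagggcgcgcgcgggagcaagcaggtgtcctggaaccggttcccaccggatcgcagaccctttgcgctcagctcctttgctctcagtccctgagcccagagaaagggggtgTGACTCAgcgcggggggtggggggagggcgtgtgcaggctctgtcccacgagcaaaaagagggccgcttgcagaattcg
Sprr1a held the TRE at -146 and -116 and TGACATCA at -207. Gja1 held a TRE at -19 and half-sites at -201 and -159, and Mt2 held a TRE at -79. Of the 8 genes among the targets and Spry2 that were looked up, 5 had a promoter entry. The 2 of these not printed held none of the elements searched.

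Sprr1a, a cornified envelope protein that is also induced in injured tissue, read 6.80, 6.95 and 6.96 with vehicle, 7.23, 7.36 and 7.34 with 10 pM E2, and 7.45, 8.08 and 7.77 with 100 pM E2. The 3 groups stood apart in the order of dose. Sprr1a rose by 0.86 ± 0.13 (SE, adjusted p = 0.0179 by limma) at 100 pM, with 0.40 ± 0.13 (SE, adjusted p = 1 by limma) at 10 pM. Gja1, the gap junction protein connexin 43, read 9.24, 9.17 and 9.24, then 9.37, 9.41 and 9.37, then 9.55, 9.85 and 9.82, again without overlap, and rose by 0.52 ± 0.07 (SE, adjusted p = 0.0116 by limma) at 100 pM. Epithelial markers had a higher mean level alongside Sprr1a at 100 pM, but not at 10 pM. Their mean log2 level was 5.89 to 5.99 on the vehicle arrays, 5.92 to 5.96 on the 10 pM arrays and 6.01 to 6.08 on the 100 pM arrays. Means at 100 pM were above vehicle for 7 of the 8, beside 47.0% of all genes lower. None was called by limma, beside 0.446% of all genes called higher. Krt18, 1 of the 8, had an unadjusted limma p below 0.05 (0.43, adjusted p = 0.112), beside 10.9% of all genes. Krt18 had the largest difference of the 8, while Krt5 was at 0.06, Trp63 at 0.09 and Krt14 at -0.04. Between the doses Krt18, a keratin of simple epithelia, rose by 0.57 (adjusted p = 0.0428 by limma). It was the 1 of the 8 called there, beside 0.226% of all genes called higher. Mean levels of Epcam, a defining epithelial marker, were 5.18 with vehicle and 5.25 at 100 pM. The part of epithelial cells in these differences was not tested.

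Ccnd1, the cyclin that carries cells through G1, read 9.08, 9.19 and 9.16 with vehicle, 9.18, 9.25 and 9.20 with 10 pM E2, and 9.57, 9.64 and 9.53 with 100 pM E2. Its step lay between the doses, and Ccnd1 rose by 0.44 ± 0.05 (SE, adjusted p = 0.00359 by limma) against vehicle and by 0.37 ± 0.05 (SE, adjusted p = 0.00970 by limma) against 10 pM. Plau, the urokinase plasminogen activator, rose by 0.37 ± 0.06 (SE, adjusted p = 0.0292 by limma), from 8.50, 8.62 and 8.54 with vehicle to 8.81, 9.02 and 8.95 at 100 pM. The fifth called target, Cd44, the hyaluronan receptor, was named after its values were seen. It rose by 0.45 ± 0.09 (SE, adjusted p = 0.0485 by limma).

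Other targets were lower at 100 pM than at 10 pM. Between the doses 3 targets were called lower and 1, Ccnd1, higher, beside 0.607% and 0.226% of all genes. Mt2, a metallothionein that binds zinc and copper, read 11.19, 11.30 and 11.19 with vehicle, 11.48, 11.32 and 11.37 with 10 pM E2, and 11.00, 10.78 and 10.90 with 100 pM E2. It was highest at 10 pM and lowest at 100 pM, and fell by 0.50 ± 0.06 (SE, adjusted p = 0.0119 by limma) between them. Against vehicle the 100 pM difference was -0.33 ± 0.06 (SE, adjusted p = 0.0506 by limma). Mt1, named after its values were seen, fell by 0.32 ± 0.06 (SE, adjusted p = 0.0390 by limma) between the doses. Without 10 pM array 1 or 3 no target was called lower between the doses, and without 10 pM array 2 only 1 was. Ccnd1 lost its call between the doses without 10 pM array 1 or 3, and without 100 pM array 1 there were 4 targets called higher.

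Ccl2, the chemokine that draws monocytes, read 6.85, 6.89 and 6.82 with vehicle, 7.15, 7.21 and 7.34 with 10 pM E2, and 6.37, 6.58 and 6.77 with 100 pM E2. Every 10 pM array was above vehicle and every 100 pM array below it. Ccl2 fell by 0.66 ± 0.09 (SE, adjusted p = 0.0146 by limma) from 10 pM to 100 pM, and its differences from vehicle, 0.38 at 10 pM and -0.28 at 100 pM, were not called. At 10 pM against vehicle limma called none of the 24 targets and 0% of all genes. Means were higher for 20 and lower for 4, beside 46.4% of all genes lower, with a median of 0.06. Unadjusted limma p was below 0.05 for 5, all higher, beside 3.54% of all genes. As the list was written with some values known, these counts are no independent evidence of a direction.

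**Figure D5:**
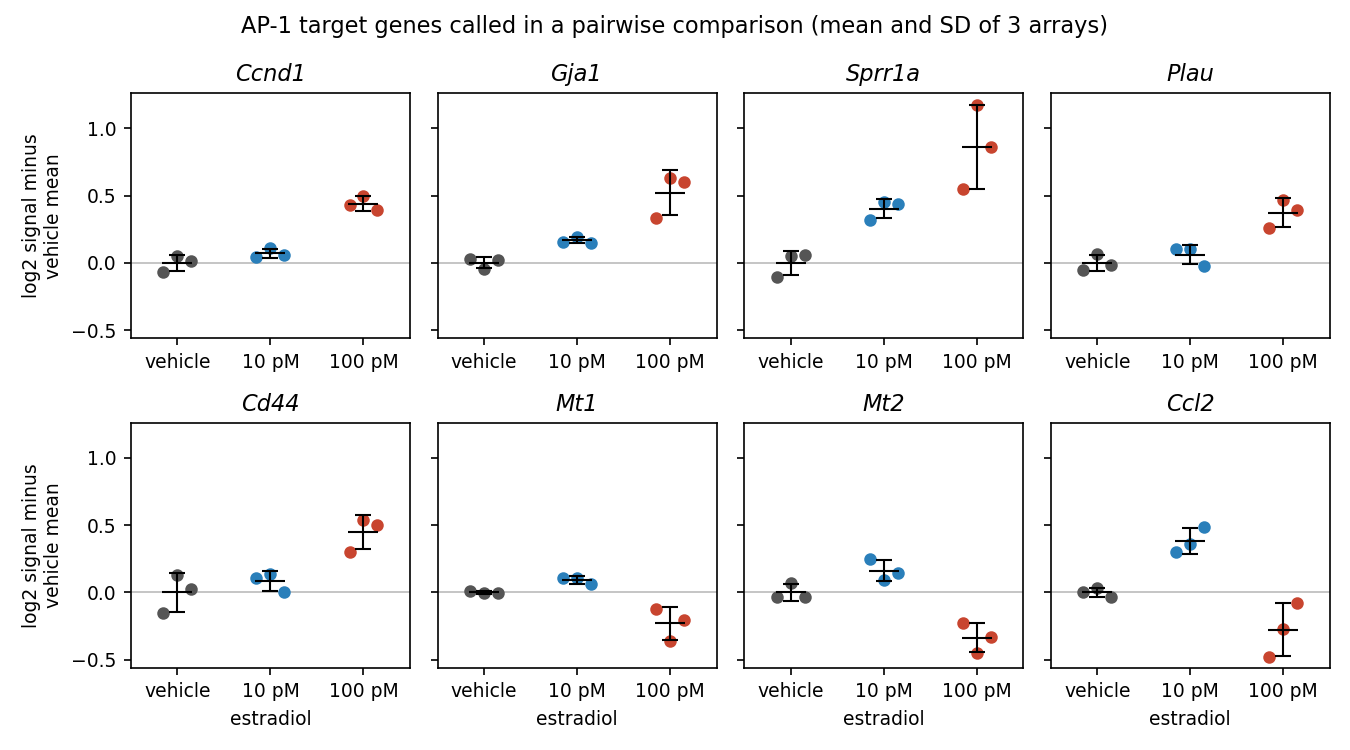
Log2 signal minus the mean of the vehicle arrays (y axis) for 8 AP-1 or Egr1 target genes called in a comparison of 2 groups, by E2 group (x axis). Points are arrays, bars the mean and SD of 3 arrays. Sprr1a, Gja1, Ccnd1, Plau and Cd44 were highest at 100 pM, and Mt1, Mt2 and Ccl2 had their highest means at 10 pM and their lowest at 100 pM.

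The calls on targets rested on few arrays. With 1 array left out, between 1 and 5 targets were called higher at 100 pM against vehicle. Without any 1 of the 3 vehicle arrays 1 was called, without 100 pM array 3 there were 2, and without 10 pM array 1 or 2 or 100 pM array 2 there were 3. Ccnd1 kept its call in all 9 of these fits, Gja1 in 6, Sprr1a in 5, Plau in 2 and Cd44 in 1.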

How the data were processed

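Per the labels and methods, total RNA of 9 samples was hybridized to Mouse Gene 1.0 ST arrays. The authors processed the scans with GCOS and the Gene Expression Console and deposited log2 signals per probeset. The log2 scale was read from the values, genes were not centred, and no build, version or batch was given in the sources used here. Groups came from the sample titles.

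Of 35556 probesets, 21789 had 1 gene symbol in the platform annotation, 1621 had several and 12146 were unnamed here. Entrez identifiers of 21698 matched the RefSeq gene table. For 999 genes with several probesets the brightest was kept, which left 19938 genes. limma 3.58.1 (lmFit, eBayes) under R 4.3.3 estimated 1 mean per group from the 9 arrays together, two-sided, with Benjamini-Hochberg adjustment over all genes and calls below 0.05. Intervals are 95% limits of that fit. Depth has no meaning for arrays, and their number limits the precision. The procedure was run on simulated data with planted changes. Their recovery is not reported here, so this run sets no limit on differences that were missed.

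The genes and lists were chosen with earlier results of these data known, among them those of Atf3, Sprr1a, Ccnd1, Gja1 and the stress genes. All 10 genes are named whatever their values. From each list come at most 6 genes called in any comparison of groups, by smallest adjusted p, or the 3 of smallest p at 100 pM where none was called. For a called member the 3 genes of highest r are named. Alternatives were quantile normalization, median centring, a filter on the dimmest 30%, all probesets, averaged probesets, eBayes with trend and robust, array weights, a replicate block, only the compared groups, a linear model without moderation as the unadjusted one-way analysis of the methods implies, a threshold of 0.10, and leaving out each array. They were applied to the target genes and lists after the data were seen. Correlations used Python 3.11.15 with scipy 1.17.1, figures matplotlib 3.10.9.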

Additional observations from a re-analysis of the deposited data

How the results depend on the processing

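The count of the 10 factors called at 100 pM against vehicle, 1 (Atf3), was 2 (with Fosb) without the dimmest 30% of genes and at an adjusted p below 0.10. It was 0 under quantile normalization, with all probesets tested, with only the compared groups, with the linear model without moderation, and in all 9 fits without 1 array (range 0 to 0). Calls over all 19938 genes also moved, from 226 to 261 under quantile normalization, 10 with only the compared groups and 30 without moderation. Without 1 array they numbered 88 to 259, and at 0.10 they numbered 365. With all probesets 119 of 35556 were called, and without the dimmest 30% 343 of 13956 genes. The F test called 1 without the dimmest 30% (beside 310 of 13956 genes) and at the threshold of 0.10 (beside 310 of 19938), and 0 otherwise. At 10 pM against vehicle, between doses and for the non-monotonic contrast, no alternative called any of the 10. The causes were not tested.

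Equal replicate numbers did not pair the arrays: correlations of deviations from group means were -0.11 to 0.20 for the 9 pairs of equal number and -0.19 to 0.17 for the 18 others, and 3 of 9 arrays correlated best with their own number. With the number as a replicate block, 0 of the 10 were called at 100 pM, beside 168 of 19938 genes. There Atf3 stood at -0.23 with a limma adjusted p of 0.0870.

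Signs turned only for differences near 0. Egr1 at 100 pM against vehicle was 0.011 under median centring, 0.0046 under quantile normalization and -0.010 to 0.0053 without 1 array. Fosl2 between doses was 0.012 under median centring, 0.0037 under quantile normalization, 0.0033 with array weights and -0.028 to 0.028 without 1 array. Without 1 array, differences at 100 pM against vehicle ranged from -0.024 to 0.084 for Fos, -0.020 to 0.048 for Jund and -0.073 to 0.030 for Ier2. At 10 pM they ranged from -0.045 to 0.062 for Fos, -0.0071 to 0.073 for Jun and -0.0090 to 0.052 for Junb. Between doses they ranged from -0.014 to 0.048 for Fos and -0.045 to 0.058 for Ier2. In the non-monotonic contrast they ranged from -0.033 to 0.033 for Fos, -0.065 to 0.0064 for Fosl1, -0.0029 to 0.053 for Fosl2, -0.043 to 0.0082 for Ier2 and -0.039 to 0.0051 for Junb.

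Of the targets, 5 were called higher at 100 pM against vehicle. This count was 2 with all probesets, 0 with only the compared groups, 1 without moderation and 1 to 5 without 1 array. In the same order these settings called 119 of 35556 probesets, then 10, 30 and 88 to 259 of 19938 genes. The main fit called 226. None was called lower, against 1 (Mt2) without the dimmest 30%, with averaged probesets, with trend and robust, with array weights and at 0.10, and 0 to 2 without 1 array. Between doses, 1 was called higher. This count was 2 under quantile normalization, 3 without the dimmest 30%, 0 with all probesets, 3 with trend and robust, 2 with array weights, 0 with only the compared groups, 0 without moderation, 3 at 0.10 and 0 to 4 without 1 array. The 3 called lower between doses became 0 with all probesets, with only the compared groups and without moderation, and 0 to 3 without 1 array.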
